A study of Mus musculus and Homo sapiens with 34 samples.

Results

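Etv1, Etv4 and Etv5 form the PEA3 subfamily of ETS transcription factors, and their transcripts were followed through 34 RNA sequencing libraries from lung tumour cultures. The 3 genes were taken by symbol, in upper case in the human tables, out of 21401 mouse gene IDs and 27030 human gene IDs listed in the 7 count tables, and all 3 were present in each table. The libraries form 17 groups of 2, with 22 libraries from mouse and 12 from human cells. Mouse 3154 organoids carry p53frt with Rosa-FSF-CreERT2 and Hnf4aflox, so that 4-hydroxytamoxifen (4OHT) activates Cre and removes Hnf4a, which encodes the nuclear receptor HNF4α. These organoids were sampled 2 weeks after ethanol or 4OHT (2 mM as labelled, for 2 days), and in a second experiment after ethanol or 4OHT with vehicle or 3 nM MRTX1133, labelled 48 hours. The labels do not say how long before sampling 4OHT was given in that second experiment. Below, 48 hours names the experiment and not a known time since deletion, so it forms no time course with the 2-week libraries. Mouse 1027B organoids and the mouse line 3311 both combine p53frt with Rosa-FSF-CreERT2 and the alleles Foxa1flox and Foxa2flox, and no treatment that removes Foxa1 or Foxa2 is named for them. The 1027B organoids received vehicle, 10 nM trametinib or 20 nM MRTX1133, and 3311 received vehicle or 50 nM trametinib, each for 48 hours. For 48 hours, 20 nM trametinib or its vehicle was also given to 2 human lung adenocarcinoma lines, H358 and H1651. A derivative of H1651 carries HNF4α on a lentiviral construct and was kept for 7 days with doxycycline at 1 µg/mL or without it. No library had doxycycline without this construct, or 4OHT without Hnf4aflox. Effects of doxycycline, 4OHT or active Cre therefore cannot be told apart from those of HNF4α gain or loss. Organoids were grown in medium conditioned by L-WRN cells, which secrete WNT, R-spondin and noggin. Each culture name stands for 1 culture model, and the labels do not say whether the 2 replicates of a group were separate cultures, so the p-values measure the spread between these libraries, which may be technical.

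MRTX1133 is a small-molecule inhibitor, and trametinib blocks MEK, the kinase that activates ERK. PEA3 factors share an ETS domain that binds DNA around a GGAA core, and their genes are known outputs of growth factor signalling through ERK. Capicua (CIC) is a repressor that sits on octamers near PEA3 genes until ERK phosphorylates it. The ubiquitin ligase COP1 removes the PEA3 proteins. In the developing lung, Etv4 and Etv5 are induced by fibroblast growth factor signalling at the tips of the branching epithelium, and Etv5 is needed to keep alveolar type 2 cells in their state. All values below are messenger RNA levels, and protein was not measured.

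In the mouse genome (GRCm38), Etv1 (ENSMUSG00000004151) spans chromosome 12 from 38779380 to 38870484 on the plus strand, Etv4 (ENSMUSG00000017724) spans chromosome 11 from 101769742 to 101785371 on the minus strand, and Etv5 (ENSMUSG00000013089) spans chromosome 16 from 22381309 to 22439719 on the minus strand. All 3 are protein coding, and 0% of their exon bases lie over exons of another gene on either strand. The human genes were identified by ENSG00000006468 (ETV1), ENSG00000175832 (ETV4) and ENSG00000244405 (ETV5). RefSeq promoter windows of GRCm38.p6, which run from 250 bases before to 50 after a start site, were found for 2 of the 3 genes, Etv1 and Etv5, with 4 windows in all. They were searched on both strands for the CIC octamers TGAATGAA, TGAATGGA, TGAATGAG, TGAATGGG, TCAATGAA, TCAATGGA, TCAATGAG and TCAATGGG. The upstream part of an inner Etv5 window is printed because it holds TGAATGGG 3 times, shown in capitals. It lies inside the annotated span of Etv5 at chr16:22438369-22438618, on the minus strand, and 0 of its bases fall in an annotated exon.

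Etv5: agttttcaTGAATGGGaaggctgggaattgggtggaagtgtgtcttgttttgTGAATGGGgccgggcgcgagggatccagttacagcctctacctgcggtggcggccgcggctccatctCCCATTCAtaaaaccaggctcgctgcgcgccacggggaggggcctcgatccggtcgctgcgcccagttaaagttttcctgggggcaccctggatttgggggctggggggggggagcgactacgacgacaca

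The octamers start 242 and 198 bases upstream of that start site on the gene's strand, and 131 bases upstream on the opposite strand, a copy that reads CCCATTCA on the printed strand. Of 32851 promoter windows of this length, 1.08% held TGAATGGG at least once, and 1, this Etv5 window, held it 3 times or more. Any of the 8 octamers occurred in 7.02% of windows, and 26 windows (0.0791%) held 3 or more. The other 3 windows, 2 of Etv1 and 1 of Etv5, held none of these letters. A PEA3-type word, AGGAAG, overlapped itself at 8 and 4 bases before an Etv1 start site, and the second copy ran across the start. One copy also began just after the inner Etv5 start site, and AGGAAG occurred in 35.4% of windows. These matches describe letters in a window, not binding.

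Levels are given as CPM, counts per 1000000 counts of the library after scaling by TMM factors, with mean ± SD over n = 2 libraries, and total counts per library ran from 19692517 to 45284286. Tables were scaled separately, so levels set across tables are only approximate. Summed epithelial markers (Epcam, Cdh1, Krt8, Krt18 and Cldn4) stood between 2981 and 9128 CPM in every library. Leukocyte markers summed to at most 8.56 CPM, and endothelial markers to at most 28.5 CPM. Fibroblast markers summed to at most 15.8 CPM in mouse. They reached between 33.1 and 148 CPM in H358 and between 311 and 548 CPM in H1651. All these sums cover only the markers present in a table, for fibroblasts 1 to 4 of 5 in mouse. Among alveolar type 2 markers, Sftpc had 3 counts or fewer in each vehicle library of 3311, and SFTPA1 and SFTPB had 3 or fewer in each H358 library. Hnf4a fell after 4OHT in all 3 comparisons of 3154, from 371 ± 79.6 to 60.7 ± 10.2 CPM at 2 weeks, from 225 ± 6.60 to 49.9 ± 0.677 CPM at 48 hours in vehicle, and from 182 ± 3.02 to 27.5 ± 3.16 CPM with MRTX1133. HNF4A rose from 41.5 ± 7.89 to 95.6 ± 1.73 CPM with doxycycline.

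**Figure D1:**
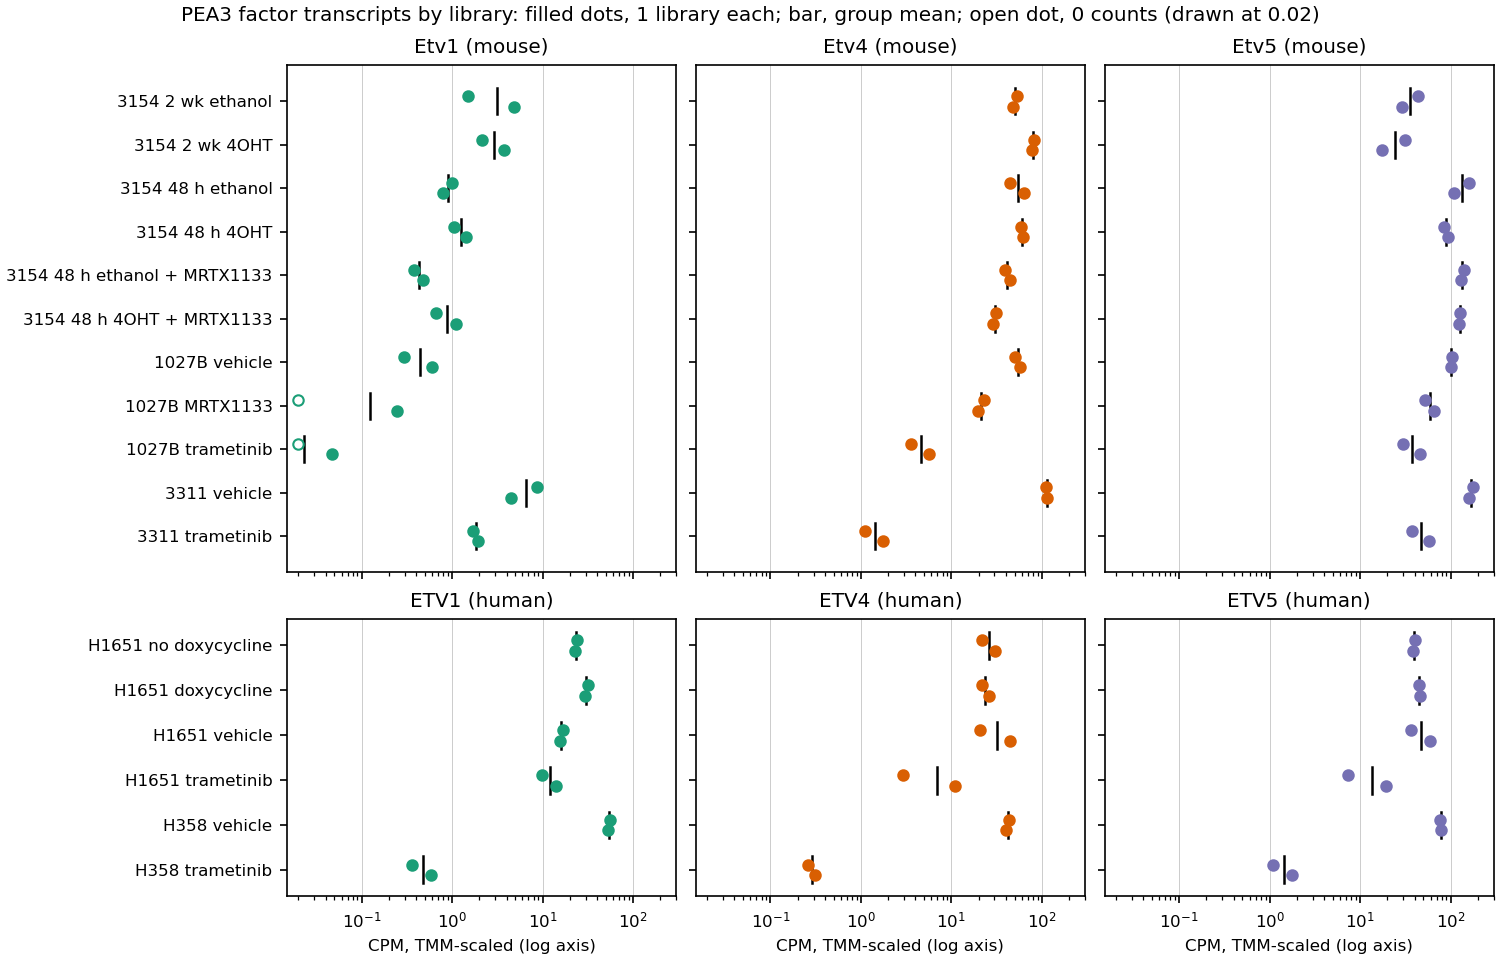
TMM-scaled CPM (log axis) of Etv1, Etv4 and Etv5 in each of 34 libraries, grouped by culture and treatment. Dots are libraries, bars are group means, and open dots mark 2 libraries with 0 Etv1 counts, drawn at 0.02. Etv4 is lowest in trametinib-treated 3311 among mouse groups, and all 3 human genes are lowest in trametinib-treated H358.

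Etv1 had the lowest CPM of the 3 in every mouse group except trametinib-treated 3311, where it stood at 1.83 ± 0.155 CPM and Etv4 at 1.43 ± 0.452 CPM. CPM does not allow for gene length. Per kilobase of exon Etv1 was below Etv4 in that group too, at 0.138 ± 0.0117 against 0.461 ± 0.145. The highest Etv1 group mean was 6.64 ± 2.96 CPM in 3311 vehicle, and in 1027B Etv1 had 11 counts or fewer in each library. Etv4 was highest in 3311 vehicle at 114 ± 2.21 CPM and lay between 50.6 and 60.2 CPM in the ethanol and vehicle groups of 3154 and 1027B, including the 48-hour 4OHT vehicle group. Neighbouring groups in the order of these 4 means overlapped, while both 4OHT vehicle libraries lay above those of 1027B vehicle and 2-week ethanol. Etv5 was also highest in 3311 vehicle, at 169 ± 11.1 CPM. Its lowest means, 35.9 ± 10.1 and 24.4 ± 9.89 CPM, were the 2 groups of the 2-week 3154 experiment, whose libraries overlapped. In human vehicle groups ETV1 stood at 54.6 ± 1.95 CPM in H358 and 16.2 ± 0.903 CPM in H1651. ETV4 stood at 42.0 ± 2.21 and 32.4 ± 16.4 CPM in the same order, and its libraries did not separate the lines. ETV5 stood at 77.97 ± 1.42 and 47.6 ± 15.7 CPM, higher in each H358 library.

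Trametinib lowered all 3 PEA3 transcripts in H358 to between 0.68% and 1.84% of their vehicle levels. ETV1 had 2162 and 1783 counts in the vehicle libraries and 17 and 15 in the trametinib libraries, or 56.0 and 53.2 CPM against 0.365 and 0.589 CPM. ETV4 had 1683 and 1355 counts in vehicle and 12 and 8 with trametinib, or 43.6 and 40.5 CPM against 0.258 and 0.314 CPM. ETV5 had 2972 and 2645 counts in vehicle and 51 and 45 with trametinib, or 77.0 and 79.0 CPM against 1.10 and 1.77 CPM. For each gene both trametinib libraries lay below both vehicle libraries, as did 37.3% of all genes tested there. What was left was 0.874% of the vehicle level for ETV1, 0.68% for ETV4 and 1.84% for ETV5. The log2 changes were -6.91 for ETV1 (SE 0.211, adjusted p 1.4e-06), -7.22 for ETV4 (SE 0.205, adjusted p 1.4e-06) and -5.83 for ETV5 (SE 0.205, adjusted p 2.49e-06). Trametinib called 46.8% of the 18972 genes tested in H358 at an adjusted p under 0.05, and 23.2% of the genes tested were called lower, so a call alone is common there. By size of the fall the 3 genes stood at ranks 11, 8 and 15 of all genes tested. In bulk RNA a fall in transcript per cell and a loss of cells that express the gene cannot be told apart. The fibroblast markers summed to 33.1 to 37.3 CPM in H358 vehicle and 119 to 148 CPM with trametinib, with 3 of 4 tested called higher and DCN and COL1A2 at 3 counts or fewer in vehicle. Epithelial markers summed to 4559.6 to 4739 CPM in vehicle and 2981 to 3354 CPM with trametinib, with 4 of 5 called, 3 of them lower. Alveolar type 1 markers summed to 434 to 443 CPM in vehicle and 934 to 991 CPM with trametinib, with 4 of 6 called higher and 1 lower. Of 7 alveolar type 2 markers 5 were called higher, and endothelial markers summed to 13.9 to 15.6 CPM in vehicle and 28.3 to 28.5 CPM with trametinib, with 2 of 5 called higher. Leukocyte markers summed to 0.955 to 1.09 CPM in vehicle and 1.41 to 1.91 CPM with trametinib, with 2 of 3 tested called higher. NKX2-1 was called higher, from 125 ± 9.97 to 173 ± 3.60 CPM (adjusted p 0.00725). The part of these marker shifts in the result was not tested.

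In 3311, trametinib lowered all 3 genes, and Etv4 most. Etv4 had 3016 and 2892 counts in vehicle and 31 and 46 with trametinib, or 112 and 115 CPM against 1.11 and 1.75 CPM. That is a 79.5-fold fall, with a log2 change of -6.31 (SE 0.231, adjusted p 0.00022), and Etv4 had the smallest p of 15224 genes tested. Etv5 had 177 and 161 CPM in vehicle and 37.6 and 57.3 CPM with trametinib, a log2 change of -1.83 (SE 0.211, adjusted p 0.00129). Etv5 thus kept 28.0% of its vehicle level where Etv4 kept 1.26%. Etv1 had 8.73 and 4.54 CPM in vehicle and 1.72 and 1.94 CPM with trametinib, a log2 change of -1.86 (SE 0.397, adjusted p 0.0111). None of the 3 genes overlapped between the groups, and 36.6% of genes tested were lower without overlap. Trametinib called 39.0% of all genes tested in 3311, and 19.6% were called lower. Alveolar type 2 markers summed to between 4635 and 5421 CPM in vehicle and between 795 and 894 CPM with trametinib, with 2 of 4 tested markers called, Sftpb (4573 ± 507 to 323 ± 91.0 CPM) lower and Lpcat1 higher. Alveolar type 1 markers summed to between 218 and 229.6 CPM in vehicle and between 974 and 1347 CPM with trametinib, with 4 of 7 called higher and 1 lower. Epithelial markers summed to between 5361 and 6227 CPM in vehicle and between 3654 and 4556 CPM with trametinib, with 1 of 5 called, lower. Fibroblast markers summed to between 14.9 and 15.8 CPM in vehicle and between 11.4 and 14.4 CPM with trametinib, with Col1a1 called higher and Pdgfra lower of 2 tested. Leukocyte markers summed to between 4.22 and 4.87 CPM in vehicle and between 0.951 and 1.54 CPM with trametinib, with 1 tested, Cd68, called lower. Nkx2-1, the lung lineage factor, stood at 215 ± 46.1 and 189 ± 18.5 CPM (adjusted p 0.443), and Hnf4a at 427 ± 73.9 and 327 ± 89.8 CPM (adjusted p 0.208). The part of these marker shifts in the PEA3 result was not tested.

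In 1027B organoids both inhibitors could be read against the same vehicle libraries. Etv4 had 51.1 and 56.9 CPM in vehicle, 22.8 and 19.6 CPM with MRTX1133, and 3.56 and 5.60 CPM with trametinib, so the 3 groups did not overlap. Etv5 had 103 and 102 CPM in vehicle, 52.2 and 66.2 CPM with MRTX1133, and 30.0 and 45.4 CPM with trametinib, in the same order and again without overlap. Of all genes tested, 34.3% were lower without overlap with trametinib and 25.6% with MRTX1133. Trametinib lowered Etv4 11.8-fold (log2 change -3.56, SE 0.229, adjusted p 0.000563) and Etv5 2.71-fold (log2 change -1.44, SE 0.209, adjusted p 0.00473). It called 26.7% of 14555 genes, 13.2% lower. MRTX1133 lowered Etv4 2.54-fold (log2 change -1.35, SE 0.203, adjusted p 0.0175) and called 6.27% of genes, 3.26% lower. Leaving out any 1 of the 4 libraries ended that call, with adjusted p from 0.0631 to 0.084, while the log2 change stayed between -1.46 and -1.23. For Etv5 the MRTX1133 change was -0.79 (95% interval -1.28 to -0.30) with an adjusted p of 0.0772, and the fit with the replicate number as a block gave -0.80 and an adjusted p of 0.00356, in a fit that called 24.1% of genes. Etv1 was too scarce to be tested, with 6 and 11 counts in vehicle, 0 and 5 with MRTX1133, and 0 and 1 with trametinib.

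The doses of the 2 inhibitors differ, so their direct comparison sets 20 nM MRTX1133 beside 10 nM trametinib and not equal exposure. Etv4 was 2.21 log2 units higher with MRTX1133 than with trametinib (95% interval 1.68 to 2.74, adjusted p 0.0648). Etv5 was 0.65 higher (95% interval 0.16 to 1.14, adjusted p 0.214). No gene passed in that comparison (0.0% of 14555 by edgeR, with 2357 at an unadjusted p under 0.05 and 712 called by DESeq2). Etv4 stood at rank 4 by p among all genes tested. With the replicate block both genes passed, Etv4 at 2.23 (adjusted p 0.00102) and Etv5 at 0.66 (adjusted p 0.0157), in a fit that called 14.1% of genes. The alveolar type 2 markers summed to 7214 to 11358 CPM in vehicle, 3596 to 5330 CPM with MRTX1133 and 3011 to 3435 CPM with trametinib. Sftpb made up most of the vehicle sum, at 7899 ± 2758 CPM. It stood at 3039 ± 1029 CPM with MRTX1133 (adjusted p 0.108) and 991 ± 484 CPM with trametinib (adjusted p 0.00491). With trametinib 8 of these 10 markers were called, 5 lower and 3 higher. Sftpc was among the higher ones, at 65.7 ± 55.0 CPM in vehicle and 1058 ± 112 CPM with trametinib. With MRTX1133, 2 of 10 were called, Lamp3 lower and Sftpc higher. Alveolar type 1 markers summed to 1549 to 1803 CPM in vehicle and 3135 to 3992 CPM with trametinib, with 5 of 8 called higher and 1 lower. With MRTX1133 they summed to 2023 to 2726 CPM, with 2 called higher and 1 lower. With trametinib 1 of 5 epithelial markers (Cdh1) was called higher and 1 of 3 leukocyte markers (Ptprc) lower. Endothelial markers summed to 2.86 to 3.95 CPM in vehicle and 8.10 to 10.03 CPM with trametinib, with the 1 tested, Vwf, called higher. Hnf4a was called lower with both inhibitors, from 459 ± 17.7 CPM in vehicle to 227 ± 37.7 CPM with trametinib (adjusted p 0.00535) and 270.0 ± 39.0 CPM with MRTX1133 (adjusted p 0.0375). Nkx2-1 was called higher with trametinib, from 314 ± 3.07 to 422 ± 12.9 CPM (adjusted p 0.0178), and stood at 379 ± 6.73 CPM with MRTX1133 (adjusted p 0.142). The part of these genes and markers in the PEA3 changes was not tested.

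In 3154 organoids 3 nM MRTX1133 called no PEA3 gene while Hnf4a was present. With ethanol, Etv4 had 44.7 and 64.2 CPM in vehicle and 39.0 and 44.5 CPM with MRTX1133, a log2 change of -0.38 (95% interval -0.80 to 0.04, adjusted p 0.47). Etv5 had 159 and 109 CPM in vehicle and 140 and 130 CPM with MRTX1133, a log2 change of 0.01 (95% interval -0.40 to 0.42, adjusted p 0.991). Etv1 had 1.01 and 0.797 CPM in vehicle and 0.383 and 0.482 CPM with the inhibitor, a log2 change of -1.06 (adjusted p 0.359) on 10 to 24 counts per library. None of the 3 was called, in a comparison that called 0.349% of 15458 genes. The Etv5 vehicle libraries were wide apart, and its sign here turned with the scaling. Alveolar type 1 markers summed to between 1601 and 1753 CPM in vehicle and between 2380.1 and 2860.2 CPM with MRTX1133, with 3 of 7 called, all higher, and their part was not tested.

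After 4OHT the same dose lowered Etv4, and Etv5 was not called. Etv4 had 58.7 and 61.6 CPM in vehicle and 31.0 and 29.1 CPM with MRTX1133, 49.9% of the vehicle level (log2 change -1.002, SE 0.184, adjusted p 0.0277). Etv5 had 85.1 and 94.5 CPM in vehicle and 127 and 124 CPM with MRTX1133, higher without overlap like 33.4% of genes, but it was not called (log2 change 0.48, 95% interval 0.07 to 0.90, adjusted p 0.173). Etv1 had 1.06 and 1.43 CPM in vehicle and 0.67 and 1.10 CPM with MRTX1133 (adjusted p 0.495). This comparison called 4.64% of genes, 2.54% lower. Without any 1 of its 4 libraries Etv4 was no longer called, with adjusted p from 0.168 to 0.261, at log2 changes from -1.05 to -0.96. Whether the response depends on Hnf4a was tested as an interaction, which called no gene by edgeR (0.0%, with 1150 at an unadjusted p under 0.05, and 36 called by DESeq2). The interaction was -0.62 for Etv4 (95% interval -1.21 to -0.03, adjusted p 0.644), 0.47 for Etv5 (95% interval -0.11 to 1.05, adjusted p 0.777) and 0.58 for Etv1 (95% interval -0.65 to 1.81, adjusted p 0.912). A different response with and without Hnf4a was therefore not shown for any member. Alveolar type 2 markers summed to between 9592 and 10942 CPM in 4OHT vehicle and between 14531 and 18995 CPM with MRTX1133, with 3 of 10 called (Sftpc and Lpcat1 higher, Sftpb lower). Alveolar type 1 markers summed to between 2784 and 2868 CPM in 4OHT vehicle and between 4865 and 4912 CPM with MRTX1133, with 3 of 7 called, all higher (Hopx, Ager and Rtkn2). Hnf4a was called lower, from 49.9 ± 0.677 CPM in 4OHT vehicle to 27.5 ± 3.16 CPM with MRTX1133 (adjusted p 0.0185). The part of these shifts was not tested.

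**Figure D2:**
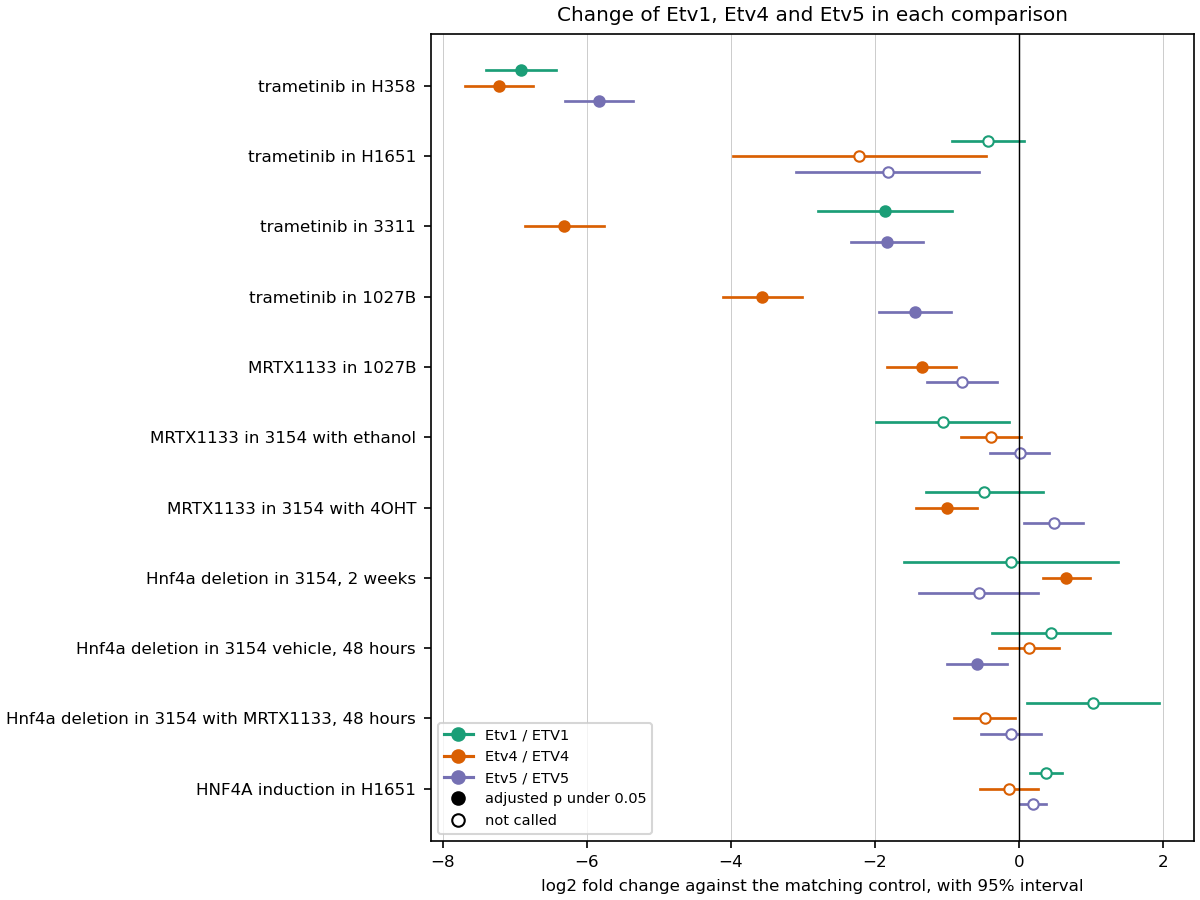
Fitted log2 fold changes of the 3 PEA3 genes (points) with 95% intervals (lines) in 11 comparisons with a matching control. Filled points passed an adjusted p of 0.05 and open points did not, and Etv1 is missing in 1027B because it was too scarce to be tested. The falls are largest in H358 (-5.83 to -7.22) and for Etv4 in 3311 (-6.31).

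In H1651 all 3 genes were lower in both trametinib libraries, and none was called without a replicate block. Same-numbered libraries deviated alike (r = 0.623), and within each number all 3 genes fell. A fit with the replicate number as a block called all 3, among many other genes, but the labels give no pairing beyond that number. ETV4 had 20.8 and 44.0 CPM in vehicle and 2.91 and 10.999 CPM with trametinib, and ETV5 had 36.5 and 58.7 CPM in vehicle and 7.39 and 19.6 CPM with trametinib. ETV1 had 16.8 and 15.5 CPM in vehicle and 9.96 and 14.1 CPM with trametinib. The groups did not overlap for any of the 3 genes, where 14.1% of genes tested were lower without overlap, but the 2 replicates of each group lay far apart for ETV4 and ETV5. The log2 changes were -2.22 for ETV4 (95% interval -3.98 to -0.46), -1.82 for ETV5 (95% interval -3.09 to -0.55) and -0.42 for ETV1 (95% interval -0.93 to 0.08), each with an adjusted p of 0.999. No gene of 18277 was called in H1651 (0.0% by edgeR, with 597 at an unadjusted p under 0.05 and 44 called by DESeq2). Without vehicle replicate 1, ETV4 stood at -2.66 (adjusted p 0.00011) and ETV5 at -2.13 (adjusted p 0.000117), and both were called, as were 1.02% of genes. Over the 4 libraries left out in turn the change ran from -3.48 to -1.55 for ETV4 and from -2.69 to -1.28 for ETV5, and neither was called without any of the other 3. Each of these fits assumes that the single library left in a group varies like the other pair. Fibroblast markers summed to 325 to 360 CPM in vehicle and 410 to 484 CPM with trametinib. Alveolar type 1 markers summed to 197 to 198 CPM in vehicle and 217 to 246 CPM with trametinib. None of these markers was called, and the part of these shifts was not tested.

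The difference between the 2 lines at the same dose and time was tested in 1 model over both tables. The trametinib change was lower in H358 than in H1651 by 6.45 log2 units for ETV1 (difference -6.45, 95% interval -7.18 to -5.73, adjusted p 0.000155). For ETV4 the difference was -4.97 (95% interval -7.16 to -2.77, adjusted p 0.0092), and for ETV5 it was -3.98 (95% interval -5.41 to -2.54, adjusted p 0.00378). All 3 passed, in a test that called 19.3% of 21188 genes, 9.86% in this direction. Leaving out trametinib replicate 1 of H358 moved the ETV4 difference to -4.84 with an adjusted p of 0.0575. Of the 3, ETV1 had the widest gap between the lines, with a trametinib mean at 0.874% of the vehicle mean in H358 and 74.5% in H1651. Cell line and every other trait that differs between H358 and H1651 cannot be told apart here, including HNF4A, which had 0 counts in each H358 library and 48.2 ± 14.3 CPM in H1651 vehicle.

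After 4OHT to remove Hnf4a, Etv4 was called higher at 2 weeks. Etv5 was called lower in vehicle in the experiment labelled 48 hours, where the time since 4OHT is not given. Each change was less than 2-fold. At 2 weeks Etv4 rose from 53.6 and 47.6 CPM in ethanol to 82.4 and 78.01 CPM in 4OHT (log2 change 0.66, SE 0.133, adjusted p 0.0374), in a comparison that called 9.81% of 14492 genes, 4.03% higher. It was called without ethanol replicate 1, and not without ethanol replicate 2 or either 4OHT library (adjusted p 0.0888 to 0.218). Etv5 had 43.1 and 28.7 CPM in ethanol and 31.4 and 17.4 CPM in 4OHT, overlapping groups with a log2 change of -0.56 (95% interval -1.38 to 0.27, adjusted p 0.322). Etv1 had 1.52 and 4.81 CPM in ethanol and 2.13 and 3.71 CPM in 4OHT, and its change of -0.10 (adjusted p 0.929) had no stable sign. Alveolar type 1 markers summed to between 1684 and 1757 CPM in ethanol and between 1992 and 2178 CPM in 4OHT, with 2 of 8 called, both higher. Of 2 endothelial markers tested 1, Pecam1, was called lower, and the part of these markers was not tested.

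In the 48-hour experiment deletion did not call Etv4. In vehicle Etv4 had 44.7 and 64.2 CPM with ethanol and 58.7 and 61.6 CPM with 4OHT (log2 change 0.14, 95% interval -0.27 to 0.56, adjusted p 0.577). Etv5 was called lower, from 159 and 109 CPM to 85.1 and 94.5 CPM (log2 change -0.58, SE 0.179, adjusted p 0.0417), where 31.0% of genes were called and 15.7% called lower. That call was lost with a filter of 10 counts in every library (adjusted p 0.0516), in a fit of the 2 groups alone (adjusted p 0.119), and without ethanol vehicle replicate 1 (log2 change -0.29, adjusted p 0.139) or either 4OHT vehicle library (adjusted p 0.135 and 0.219). Etv1 stood at 0.903 ± 0.150 and 1.25 ± 0.260 CPM (adjusted p 0.366). With MRTX1133 present, deletion called 27.7% of genes and none of the 3 members. There the log2 changes were 1.04 for Etv1 (95% interval 0.12 to 1.95, adjusted p 0.0884), -0.47 for Etv4 (95% interval -0.90 to -0.05, adjusted p 0.0897) and -0.11 for Etv5 (95% interval -0.52 to 0.30, adjusted p 0.694). At 48 hours in vehicle the alveolar type 1 sum was 1601 to 1753 CPM with ethanol and 2784 to 2868 CPM with 4OHT, and 5 of 7 of these markers and 5 of 10 alveolar type 2 markers were called, all higher. With MRTX1133, 6 of 7 and 2 of 10 were called higher after deletion, as were 1 of 5 epithelial, 1 of 3 leukocyte, 1 of 2 endothelial markers and the 1 fibroblast marker tested. The part of these marker shifts was not tested. The MRTX1133 and deletion comparisons of this experiment share libraries and are not independent of each other.

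Doxycycline, which raised HNF4A in the H1651 derivative, came with small differences. ETV1 had 23.8 and 23.1 CPM without doxycycline and 31.7 and 29.3 CPM with it (log2 change 0.38, 95% interval 0.16 to 0.60, adjusted p 0.125). ETV5 had 40.2 and 38.6 CPM without and 44.3 and 46.3 CPM with doxycycline (log2 change 0.20, 95% interval 0.02 to 0.38, adjusted p 0.342), and ETV4 had 21.6 and 30.5 CPM against 21.7 and 25.9 CPM (log2 change -0.13, 95% interval -0.54 to 0.27, adjusted p 0.82). None was called, and 1.42% of 17351 genes were. Fibroblast markers summed to between 504 and 548 CPM without and between 311 and 326 CPM with doxycycline, with 1 of 4 called, lower. Epithelial markers summed to between 4499 and 4505 CPM without and between 5829 and 6305 CPM with doxycycline, with 2 of 5 called, both higher, and the part of these shifts was not tested.

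Per kilobase of exon, Etv4 and Etv5 made up almost all PEA3 transcript in mouse cells, and their balance differed between groups. Etv1 contributed at most 1.59% of the summed CPM per kilobase in any mouse library. In 3311 vehicle, Etv5 made up 52.6% ± 1.97 (SD, n = 2) and Etv4 46.8% ± 2.24 of the sum, and with trametinib these shares were 95.1% ± 0.147 and 3.77% ± 0.0965. The ratio of Etv5 to Etv4 per kilobase was 1.06 and 1.195 in the vehicle libraries and 24.8 and 25.6 in the trametinib libraries. In 1027B the Etv5 share was 58.9% ± 2.07 in vehicle, 67.6% ± 5.96 with MRTX1133 and 86.2% ± 0.339 with trametinib. In 4OHT-treated 3154 it was 52.9% ± 0.996 in vehicle and 75.9% ± 0.421 with MRTX1133, and in ethanol 64.5% ± 11.7 and 71.0% ± 2.97. In the 2-week 3154 libraries Etv4 made up more than Etv5, with Etv4 at 64.7% ± 3.96 of the sum in ethanol and 81.0% ± 5.30 in 4OHT. The ethanol groups of 3154 thus differed between experiments, with Etv5 at 34.3% ± 4.80 at 2 weeks and 64.5% ± 11.7 in the 48-hour vehicle group. Shares are therefore best compared within an experiment, and the cause of this gap was not tested. With 2 libraries against 2, an exact two-sided permutation test of such a share cannot give a p below 0.333, so the shares are descriptions. Human shares were not computed because no human gene lengths were used here.

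**Figure D3:**
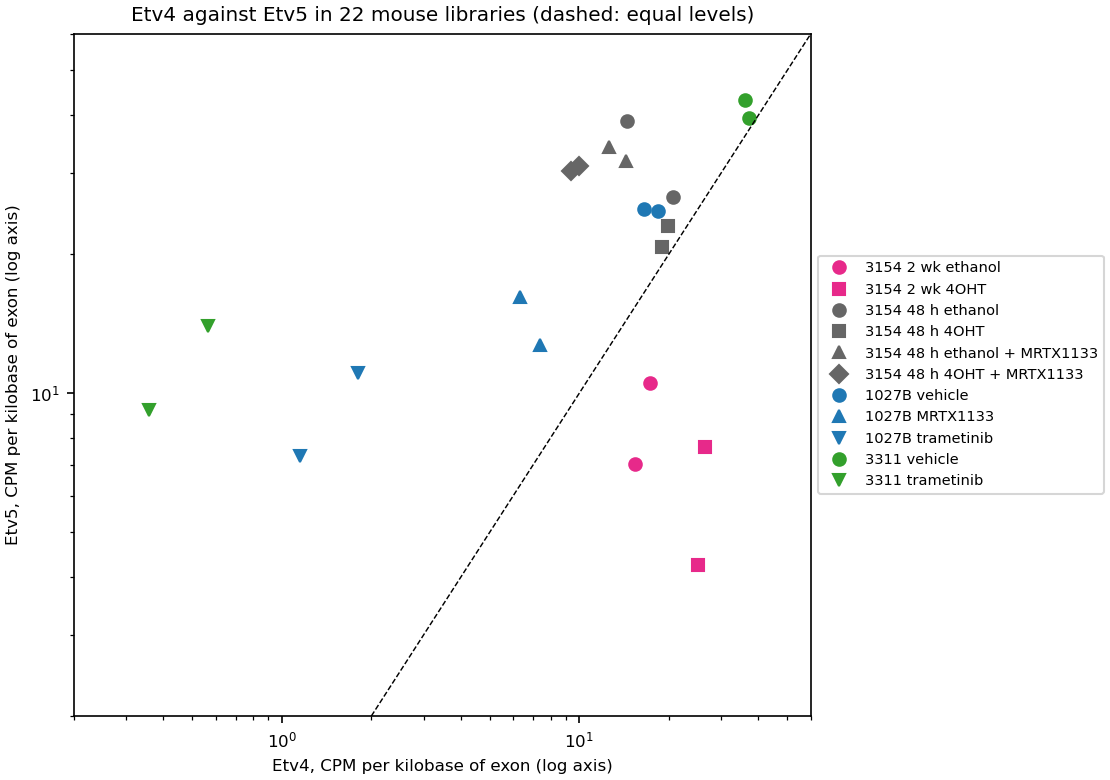
Etv4 (horizontal) against Etv5 (vertical) in CPM per kilobase of exon, both on log axes, for 22 mouse libraries, with colours for the experiment and symbols for the treatment. The dashed line marks equal levels. The 4 libraries of the 2-week experiment lie below it, and the trametinib libraries of 3311 and 1027B lie far above it, at ratios of 6.13 to 25.6.

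The PEA3 genes were set beside 17 other genes of ERK feedback and output, a list of ERK phosphatases, Sprouty and Spred inhibitors, and immediate targets. In H358 all 17 were called, 16 lower and 1, EPHA4, higher, with a median log2 change of -1.79 against 0.02 over all genes, of which 46.8% were called. DUSP6, the ERK phosphatase, changed by -7.59 on the log2 scale and SPRY4 by -5.74, so ETV4 at -7.22 and ETV1 at -6.91 lay between these feedback genes. In 3311, 14 of 17 were called, 13 lower and Epha4 higher (median -1.20 against 0.01), where 39.0% of all genes were called. There Dusp6 moved from 706 ± 87.2 to 193 ± 50.7 CPM (log2 change -1.87) and Spry4 from 141 ± 22.9 to 9.87 ± 5.24 CPM (log2 change -3.84), both smaller falls than that of Etv4 at -6.31. In 1027B, 14 were called with trametinib, 13 lower and Epha4 higher (median -1.05 against -0.01), and 7 with MRTX1133, 6 lower and Epha4 higher (median -0.54 against 0.01), where 26.7% and 6.27% of all genes were called. With MRTX1133 in 3154, 0 were called with ethanol (median -0.09) and 4 after 4OHT, the lower Spry4, Spred2, Epha2 and Spry2 (median -0.38), against 0.349% and 4.64% of all genes. In H1651 none was called (median -0.80, with 0.0% of all genes called), and DUSP6 stood at 50.8 ± 1.41 CPM in vehicle and 6.37 ± 1.55 CPM with trametinib (adjusted p 0.149). After Hnf4a deletion the list was mixed: 1 was called at 2 weeks (Fosl1, higher), 9 at 48 hours in vehicle (6 higher, and Ier3, Spry1 and Phlda1 lower) and 7 with MRTX1133 (Ccnd1 and Epha4 higher, and Spry4, Spred2, Ier3, Spry1 and Spry2 lower). Of all genes 9.81%, 31.0% and 27.7% were called in these comparisons. With doxycycline CCND1 and DUSP6 were called higher, 2 of 17 against 1.42% of all genes. In this and the following lists, genes other than Dusp6, Spry2, Spry4, Cic, Atxn1l, Erf, Cop1, Trib1, Ets1, Ets2, Elf3, Ehf, Mmp7, Mmp14, Plaur and Fgfr2 are named after their values were seen.

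**Figure D4:**
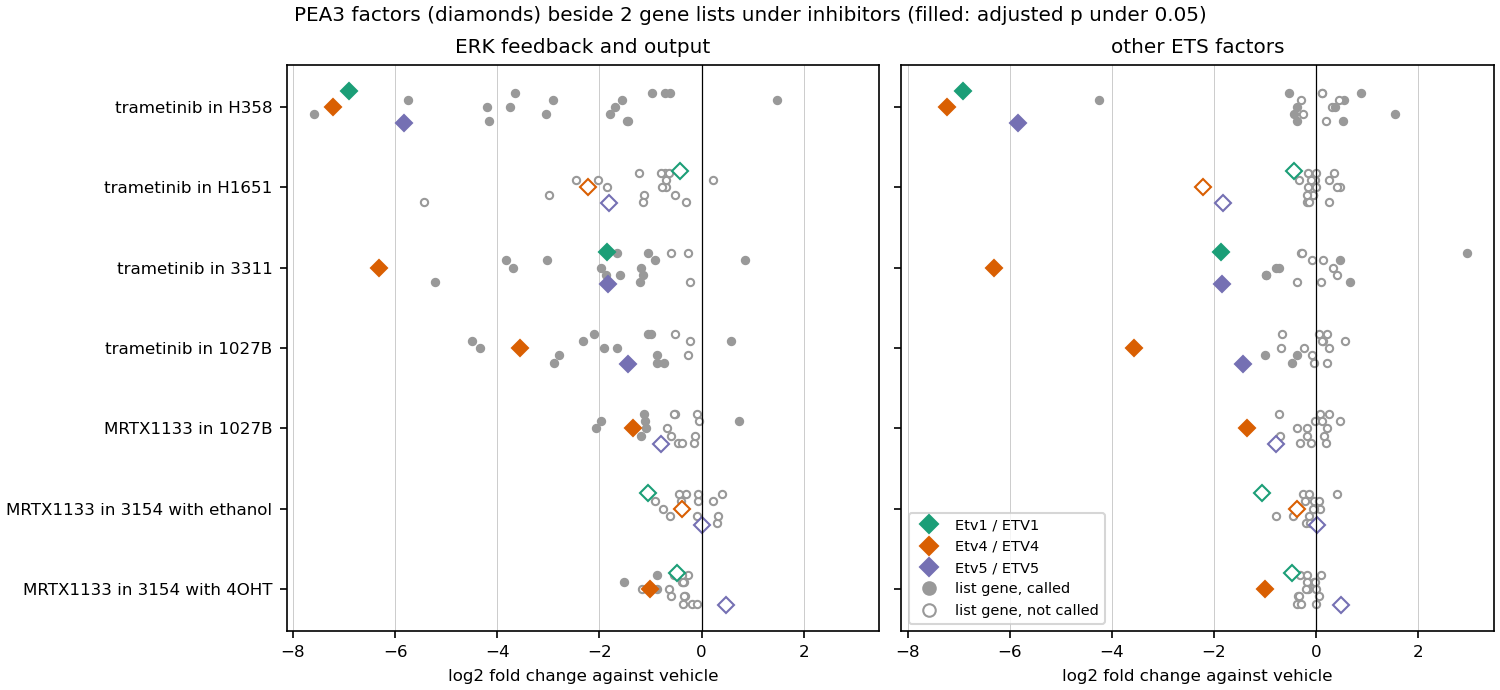
Log2 fold changes under inhibitors for the PEA3 genes (diamonds), beside 17 ERK feedback and output genes (left, dots) and the tested ones of 24 other ETS factors (right, dots). Filled symbols passed an adjusted p of 0.05. In H358 and 3311 the ETV4 (-7.22) and Etv4 (-6.31) diamonds lie left of every other ETS factor tested.

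The regulators of PEA3 genes and proteins that were called moved in both directions. The list includes the COP1 adaptors Trib1 and Trib2, and whether they act on PEA3 proteins was not tested. Cic, the repressor, was not called in any comparison, and stood at 183 ± 2.29 and 180 ± 20.8 CPM without and with trametinib in 3311 and at 85.8 ± 5.92 and 92.5 ± 3.92 CPM in H358. Cop1, the ubiquitin ligase, was likewise called in none. Trib1, which brings substrates to COP1, was called higher with trametinib in 3311 (67.4 ± 8.39 to 103 ± 21.0 CPM) and 1027B (89.4 ± 8.87 to 137 ± 10.4 CPM), and after Hnf4a deletion at 48 hours in vehicle (37.4 ± 14.7 to 109 ± 2.19 CPM) and with MRTX1133 (52.9 ± 12.6 to 139 ± 8.67 CPM). Of the 11 regulators, 3 were called in 3311 (Trib1 higher, Trib2 and Etv3 lower), 1 of 10 tested in 1027B with trametinib (Trib1), and 5 in H358, where 39.0%, 26.7% and 46.8% of all genes were called, with medians of -0.07, -0.03 and 0.11. The H358 calls were ATXN1L, ATXN1 and ETV3 higher and ERF and TRIB2 lower. ATXN1L, a partner of CIC, stood at 73.0 ± 10.4 and 103 ± 10.0 CPM in H358, and ERF, an ETS repressor, at 58.5 ± 5.09 and 43.4 ± 4.58 CPM. After 4OHT, MRTX1133 called 1 of 11 (Trib2, lower), against 4.64% of all genes. Deletion called 1 of 11 in vehicle (Trib1, higher) and 3 of 11 with MRTX1133 (Trib2 and Etv3 lower and Trib1 higher), against 31.0% and 27.7% of all genes. None was called in 3154 at 2 weeks, with MRTX1133 in ethanol, with MRTX1133 in 1027B, or in either H1651 experiment.

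Other ETS factors were called in both directions. In 3311, 7 of 15 tested were called (Elf3, Elk4, Elk3 and Etv3 lower, Elf1, Elf4 and Ehf higher), with a median of -0.08, where 39.0% of all genes were called. Ehf, an epithelial ETS factor, rose from 0.442 ± 0.00549 to 3.45 ± 0.247 CPM, and the deepest called falls, of Elf3 and Elk4, were both -0.98. In 1027B, trametinib called 3 of 15 (Elf3, Gabpa and Elk4, all lower, median -0.04) against 26.7% of all genes, and MRTX1133 called 0 (median -0.02) against 6.27%. H358 had 10 of 17 called, 5 in each direction (median 0.11), against 46.8% of all genes: SPDEF, ELK1, ERF, ETS1 and ELK4 were lower, and ETV3, ELF4, ELF1, EHF and ELF3 higher. ELF3 rose there from 128 ± 4.61 to 373 ± 60.9 CPM, opposite to the mouse Elf3 in 3311, and SPDEF had the deepest fall of the list at -4.24. After Hnf4a deletion Elf3 fell from 241 ± 26.5 to 123 ± 17.3 CPM at 2 weeks and from 698 ± 150 to 177 ± 3.66 CPM at 48 hours in vehicle, changes of -0.97 and -1.98. The other calls were Elk3 and Spdef higher at 2 weeks, Elf5 lower and Ets1, Ets2 and Elk3 higher at 48 hours in vehicle, and under MRTX1133 the same 4 with Etv3 and Elf3 also lower. These are 3 of 16, 5 of 15 and 6 of 15 tested, where 9.81%, 31.0% and 27.7% of all genes were called. None was called in H1651 or with MRTX1133 in 3154.

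Genes described as PEA3 targets were called in both directions. In 3311, 11 of 11 tested were called, 8 lower and 3 higher (Icam1, Mmp14 and Erbb2), with a median of -1.69, against 39.0% of all genes. Mmp14, a membrane-bound matrix protease, rose from 7.94 ± 0.716 to 21.7 ± 3.27 CPM while Etv4 fell, and Plaur, the urokinase receptor, fell from 70.1 ± 27.8 to 36.1 ± 9.79 CPM. In 1027B, trametinib called 7 of 10 (Mmp13, Vim, Spp1, Plau and Muc4 lower, Icam1 and Mmp14 higher, median -0.85) against 26.7% of all genes, and MRTX1133 called Icam1 and Mmp14 higher (median -0.17) against 6.27%. In H358, where the 3 factors fell most, 7 of 14 were called higher and 3 lower (PLAUR, SPP1 and MMP1), with a median of 0.51, against 46.8% of all genes. MMP7, a secreted matrix protease, rose there from 5.17 ± 0.344 to 73.0 ± 5.63 CPM. After Hnf4a deletion the called ones were higher, 4 of 11 at 2 weeks (Mmp9, Spp1, Mmp13 and Ptgs2), 7 of 11 at 48 hours in vehicle and 7 of 11 with MRTX1133, with medians of 1.40, 1.46 and 1.06, where 9.81%, 31.0% and 27.7% of all genes were called. At 2 weeks Etv4 was called higher as well, and in the last 2 of these comparisons no PEA3 gene was called higher. MRTX1133 in 3154 called 1 of 11 after 4OHT (Mmp13, lower) and 0 with ethanol, against 4.64% and 0.349% of all genes, and no target was called in either H1651 experiment.

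Upstream, Fgfr2, a receptor for fibroblast growth factors, rose with trametinib in 3311 from 16.9 ± 6.08 to 166 ± 3.37 CPM (log2 change 3.30) and in H358 from 10.3 ± 0.523 to 26.0 ± 2.36 CPM (log2 change 1.34), where the PEA3 genes fell. In 1027B, where Etv4 fell too, Fgfr2 was not called. It stood there at 54.0 ± 5.79 CPM in vehicle, 68.7 ± 7.37 CPM with trametinib (adjusted p 0.0846) and 56.3 ± 1.29 CPM with MRTX1133 (adjusted p 0.827). Of the list of FGF receptors and ligands, 6 of 9 tested were called in 3311, with Fgfr2, Fgf18 and Fgf1 higher and Fgf9, Fgfr4 and Fgfbp1 lower, against 39.0% of all genes. In H358 6 of 7 were called, with FGFR1, FGFR2, FGFR3 and FGF9 higher and FGFR4 and FGFBP1 lower, against 46.8% of all genes. In 1027B, 4 of 9 were called with trametinib (Fgfr3 and Fgf1 higher, Fgfr4 and Fgf2 lower) and 3 with MRTX1133 (Fgfr3 and Fgf1 higher, Fgfr4 lower), against 26.7% and 6.27% of all genes. After 4OHT in 3154, MRTX1133 called 2 of 8 (Fgfr4 and Fgfbp1, lower), against 4.64% of all genes. Hnf4a deletion called 2 of 7 at 2 weeks (Fgf18 higher, Fgfbp1 lower), 5 of 8 at 48 hours in vehicle and 4 of 8 with MRTX1133, against 9.81%, 31.0% and 27.7% of all genes, and doxycycline called 1 of 8 in H1651 (FGFR3, higher), against 1.42%.

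The genes whose levels varied most like each PEA3 gene were ranked by Pearson r of log2 CPM, each gene centred within its table, as a description over libraries that share treatments. Among 12596 genes over 22 mouse libraries, Etv4 was most like Lad1 (r = 0.973, rho = 0.935), Sox9 (r = 0.972, rho = 0.914) and Klra2 (r = 0.965, rho = 0.923). Etv5 was most like Ddx19b (r = 0.887, rho = 0.810), Coq2 (r = 0.884, rho = 0.863) and Trim7 (r = 0.872, rho = 0.860). Etv4 and Etv5 themselves had r = 0.806 and rho = 0.574. Among 13976 genes over 12 human libraries, ETV4 and ETV5 had r = 0.995 and rho = 0.951, and each was first on the list of the other's most similar genes. ETV4 was next most like PHLDA1 (r = 0.995) and STAMBPL1 (r = 0.991), and ETV5 like STAMBPL1 (r = 0.990) and SPRY4 (r = 0.990). ETV1 was most like ENO1 (r = 0.996), ZNF695 (r = 0.995) and GSTO1 (r = 0.994), ahead of ETV5 (r = 0.957) and ETV4 (r = 0.946). The 2 trametinib libraries of H358 hold the lowest values of all 3 human genes, and mouse Etv1 was not ranked because it was not tested in every table.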

How the data were processed

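The values are whole read counts per gene, not normalized, in 7 tables that the authors deposited. Per the submitters' processing notes, cutadapt 3.5, STAR 2.7.6a and featureCounts 1.6.3 were used with the builds mm10, mm39 and hg38. Which mouse build belongs to which table, and the strand setting, are not given in the sources used here. Per the labels' protocols, poly(A) RNA went into directional, paired-end libraries. The columns of the 3311 table name treatment and replicate only and were assigned by the table's name. Coordinates and exon lengths come from GENCODE annotation of GRCm38, matched by gene ID, and promoters from RefSeq.

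Each table was fitted whole in R 4.3.3 with edgeR 4.0.16 (filterByExpr, TMM, quasi-likelihood F-test, two-sided, no replicate block), with Benjamini-Hochberg adjustment over all genes tested and a call at an adjusted p under 0.05. SE is the log2 change divided by the square root of F. The H358 and H1651 trametinib tables were joined by gene ID for the difference of responses. As alternatives, size factors by RLE or upper quartile, DESeq2 1.42.0, no filter, at least 10 counts in every library, only the 2 groups compared, a 2-fold limit, a replicate block, and each library left out in turn were run. Fits were tested on simulated counts. Replicates of 1 group differed by more than sampling noise in every group (chi-square per degree of freedom 5.90 to 87.9). The labels give only replicate numbers, with no shared source. The deviations of same-numbered libraries were taken as paired where a table allowed at least 3 such correlations and all exceeded 0.1. The 1027B table met this (r = 0.243, 0.372 and 0.414), so its blocked values stand beside its results where they change a call. Tables with 2 groups give 1 correlation each and could not meet it, although some were as high or higher.

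The rule for named genes covers the 3 PEA3 factors, 20 others fixed by name (Dusp6, Spry2, Spry4, Cic, Atxn1l, Erf, Cop1, Trib1, Ets1, Ets2, Elf3, Ehf, Mmp7, Mmp14, Plaur, Fgfr2, Sftpb, Sftpc, Hnf4a and Nkx2-1), and the 3 most alike genes of each factor and species. Other genes of the lists that the text names were named after their values were seen. The members and lists were chosen with earlier results of these data known. One allele that the mouse cultures share is not reported here.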

Additional observations from a re-analysis of the deposited data

Results flagged for a closer look

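The trametinib response of all 3 PEA3 genes differed between H358 and H1651 in the joint model, which tested the difference itself. The difference of log2 changes, H358 minus H1651, was -6.45 for ETV1, -4.97 for ETV4 and -3.98 for ETV5. In H358 both trametinib libraries of each gene held 51 counts or fewer, and in H1651 they held 107 counts or more. Over the alternatives, leaving out libraries included, the difference ran from -6.74 to -6.11 for ETV1, from -5.64 to -3.71 for ETV4 and from -4.53 to -3.11 for ETV5. The lines differ in many traits that cannot be told apart here.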

How the results depend on the processing

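The calls of the 3 genes in H358 and 3311, and of Etv4 and Etv5 with trametinib in 1027B, held in every alternative run, each library left out included, as did the ETV1 and ETV5 differences between the lines. The ETV4 difference was lost without trametinib replicate 1 of H358. The number of PEA3 genes called with a replicate block was 2 at 2 weeks (1 without), 2 for MRTX1133 in 1027B (1 without), 2 for MRTX1133 against trametinib (0 without), 3 for trametinib in H1651 (0 without) and 2 for doxycycline (0 without). The block changed no other count of PEA3 calls. In no table do the labels give a pairing beyond the number. Same-numbered deviations correlated at 0.623 in H1651 with trametinib, 0.427 at 2 weeks, 0.318 in H358, 0.318 with doxycycline and 0.126 in 3311, and from -0.251 to 0.549 among the 48-hour 3154 groups, where the highest value belongs to ethanol with and without MRTX1133. In H1651 the blocked changes were -0.45 for ETV1 (adjusted p 0.00142), -2.30 for ETV4 (1.9e-21) and -1.89 for ETV5 (8.27e-21). Blocked Etv5 at 2 weeks was -0.58 (0.0134), and with doxycycline ETV1 was 0.38 (3.3e-05) and ETV5 0.20 (0.0175). With so few libraries a blocked fit of 2 groups leaves few residual degrees of freedom. These p-values therefore rest mostly on spread shared across genes and cannot be read at face value. DESeq2 gave 2 calls for MRTX1133 in 1027B and 1 for MRTX1133 against trametinib. A fit of only the 2 groups compared gave 0 for deletion at 48 hours in vehicle, 1 with MRTX1133, 2 for MRTX1133 after 4OHT and 2 for MRTX1133 in 1027B. The filter of 10 counts gave 0 for deletion at 48 hours in vehicle, and the 2-fold limit gave 0 there and at 2 weeks. Leaving out 1 library gave 0 to 1 calls in both the 2-week and the 48-hour vehicle deletion, 0 to 0 for MRTX1133 after 4OHT and in 1027B, and 0 to 2 in H1651. These fits assume that a lone library varies like the other groups. Etv1 at 2 weeks, -0.10, turned to 0.00528 with upper-quartile factors and 0.0235 with the block, and ran from -0.74 to 0.94 without single libraries. Etv5 with MRTX1133 in ethanol, 0.01, was -0.0157 with DESeq2 and -0.0157 with RLE factors, -0.00643 in the 2-group fit, and -0.23 to 0.31 without single libraries. Single libraries also turned Etv4 in the 48-hour vehicle deletion (-0.10 to 0.42) and ETV4 with doxycycline (-0.36 to 0.14). The causes were not tested.

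Over all genes, counts that moved most were 4563 with the block and 2303 with DESeq2 at 2 weeks (main 1421), 3154 in the 2-group fit for deletion at 48 hours in vehicle (main 4795), 330 with DESeq2 and 0 in the 2-group fit for MRTX1133 in ethanol (main 54), and 1334 and 3932 after 4OHT (main 717). They were 6540 with the block for trametinib in 1027B (main 3880), 3515 with the block and 1627 with DESeq2 for MRTX1133 there (main 913), 2050, 712 and, in the 2-group fit, 1 for MRTX1133 against trametinib (main 0), 1881, 44 and, with no filter, 2 in H1651 (main 0), 3048 and 451 with doxycycline (main 247), and 8472 with the block for the difference between lines (main 4087). DESeq2 called 36 genes for the interaction (main 0). The 2-fold limit left 2518 (main 4795) and 2196 (main 4279) genes for deletion at 48 hours without and with MRTX1133, 323 for MRTX1133 after 4OHT, 1768 and 417 for trametinib and MRTX1133 in 1027B, 3386 in 3311 (main 5938), 4118 in H358 (main 8871), 127 with doxycycline and 2395 for the difference between lines. Leaving out 1 library gave 395 to 2790 at 2 weeks, 1668 to 5964 and 1745 to 2805 for deletion at 48 hours, 0 to 309 and 0 to 23 for MRTX1133 in ethanol and after 4OHT, 1336 to 2754 and 138 to 349 for trametinib and MRTX1133 in 1027B, 0 to 2 for their difference, 3772 to 6298 in 3311, 0 to 193 in H1651, 232 to 412 with doxycycline and 2177 to 3667 for the difference between lines. Etv1 was at 0 to 11 counts in the 1027B libraries and was not tested there with the filter, and without a filter had an adjusted p of 0.117 with trametinib and 0.438 with MRTX1133 in 1027B.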
